A study of Rattus norvegicus with 15 samples.

Results

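The respiratory chain genes described here are the 121 of 30454 genes in the deposited tables whose symbol begins with Nduf, Uqcr, Atp5, Mt- or Cox with a numeral from 4 to 8, or names 1 of the 4 Sdh genes (Sdha to Sdhd). They comprise 13 mRNAs of the mitochondrial genome and 108 nuclear genes. Of the nuclear genes, 82 are named as subunits (36 of complex I, 4 of complex II, 8 of complex III, 17 of complex IV and 17 of complex V), 9 as assembly or regulatory factors, 3 as genes similar to a subunit and 14 as pseudogenes. The symbols Cox6b1, Ndufb2, Atp5mc1 and Atp5mk-ps2 each stand on 2 genes. A mean level of at least 1 FPKM (fragments per kilobase of gene, scaled to library depth) over all libraries was reached by 105 genes, which entered the tests: all 13 mitochondrial mRNAs and 92 nuclear genes. The 16 others were 7 pseudogenes, Ndufb4l1 and 8 subunit genes. Among these subunit genes were Cox7a1 at a mean of 0.791 FPKM, the 2 Atp5mc1 genes at 0.347 and 0.404, Uqcr11 at 0.0162, Cox8c at 0.0107, and Cox7b2 and 1 of the Ndufb2 genes, both listed at 0 in every library.

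RNA of the femur of female SD rats was sequenced as polyadenylated RNA in 15 libraries, 3 for each of 5 groups. The rats entered at 8 weeks of age, recovered from surgery for 6 weeks and were then treated for 8 weeks. All rats were operated on under pentobarbital and given penicillin afterwards. Sham rats kept their ovaries, had a like amount of fat taken out and received normal saline. OVX rats lost both ovaries, the main source of estrogen, and received normal saline. The rats of groups J, P and PJ also lost both ovaries and received a plant extract by mouth every day: Juglans regia (walnut) at 1.6 g/kg for J, Psoralea corylifolia at 2.4 g/kg for P, and a combination of both at 4.0 g/kg for PJ. No extract was given to rats with ovaries. The comparison with Sham concerns bone loss after removal of the ovaries, and those with OVX concern its treatment. Separate rats behind the libraries are not stated in the labels, and the p-values therefore cover only library-to-library spread, which may be technical.

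The respiratory chain sits in the inner mitochondrial membrane. Complexes I and II take electrons from NADH and succinate, complex III passes them by way of cytochrome c to complex IV, which reduces oxygen, and complex V (ATP synthase) uses the proton gradient built by complexes I, III and IV to make ATP. A few subunits of complexes I, III, IV and V are transcribed inside the mitochondrion from its own circular genome, the others are transcribed in the nucleus and imported, and complex II is nuclear throughout. Bone marrow holds red cell precursors, which need mitochondria for heme synthesis and lose them as they mature, beside fat cells and vessels. The femur also holds cartilage and bone cells.

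The FPKM values give relative depth only, and the deepest library, PJ 2, had 1.78 times the depth of the shallowest, Sham 3. Some libraries stood apart in markers of other tissues. The skeletal muscle list (12 of 14 markers in the files) summed to 1160 FPKM in P 2, to 367 and 282 FPKM in Sham 1 and Sham 2, and to between 7.06 and 129 FPKM in the others. Myh7, a slow-muscle myosin, was at 0 in Sham 3, OVX 1, J 1, J 3, P 1 and all PJ libraries. The erythroid list (10 of 10) summed to 35.4 to 153 FPKM in Sham, 4015 to 5404 in OVX, 2061 to 2621 in J, 628 to 1316 in P and 151 to 667 in PJ. The cartilage list (6 of 6) summed to 4303 to 8830 FPKM in Sham and 3.01 to 9.85 FPKM in OVX, with Acan at 0 in OVX 3. Within P it summed to 53.9, 3035 and 187 FPKM and within PJ to 743, 752 and 35.0 FPKM, so that P 2 and PJ 3 stood apart from the other libraries of their groups. Markers of osteoblasts were present in every library, with sums of 208 to 6061 FPKM.

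The 13 mitochondrial mRNAs held a smaller share of all FPKM in OVX than in Sham libraries, while the nuclear subunits held a larger one. Mitochondrial mRNAs made up 23.8, 22.4 and 14.2% of all FPKM in the Sham libraries and 12.0, 12.2 and 14.1% in the OVX libraries. Every OVX library was below every Sham library, although OVX 3 and Sham 3 were nearly equal. The shares were 16.4, 24.5 and 23.5% in J, 17.6, 35.9 and 11.2% in P, and 11.4, 15.5 and 16.9% in PJ. All J libraries lay above the OVX libraries, and the P and PJ libraries overlapped them. The libraries of P spread most, with P 2 at the top and P 3 at the bottom of all 15. The log2 difference of mean log shares was -0.63 for OVX against Sham, 0.73 for J against OVX, 0.60 for P against OVX and 0.18 for PJ against OVX. The value for P was 0.15 without P 2 and 0.98 without P 3, and that for PJ 0.06 without PJ 3 and 0.35 without PJ 1. These sums are given without a test, and in whole bone fewer cells of a type and less RNA per cell cannot be told apart.

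P 2, Sham 1 and Sham 2, highest in the muscle list, had mitochondrial shares of 35.9, 23.8 and 22.4%. J 3, with a muscle sum of 11.0 FPKM, had 23.5%, and P 3, with 9.90 FPKM, had 11.2%. The part of muscle RNA in the mitochondrial share was not tested.

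Nuclear subunits together stood at 3591, 3876 and 4663 FPKM in the Sham libraries and at 5760, 5227 and 6042 FPKM in the OVX libraries. They stood at 4987, 4734 and 4943 FPKM in J, at 4977, 5068 and 4460 in P, and at 4624, 4541 and 4472 in PJ. Every OVX library was above all libraries of the other 4 groups. The ratio of the mitochondrial to the nuclear sum was 28.4, 25.0 and 13.1 in Sham, 9.71, 10.6 and 10.9 in OVX, 15.0, 25.4 and 23.9 in J, 15.5, 37.0 and 10.6 in P, and 10.1, 14.5 and 16.9 in PJ. Thus the OVX libraries were below every Sham and J library, and overlapped with P and PJ. On the log2 scale the mean ratio differed by -1.02 between OVX and Sham and by 1.01 between J and OVX. It differed by 0.81 between P and OVX, or 0.30 without P 2 and 1.21 without P 3, and by 0.38 between PJ and OVX, or 0.22 without PJ 3 and 0.59 without PJ 1.

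**Figure D1:**
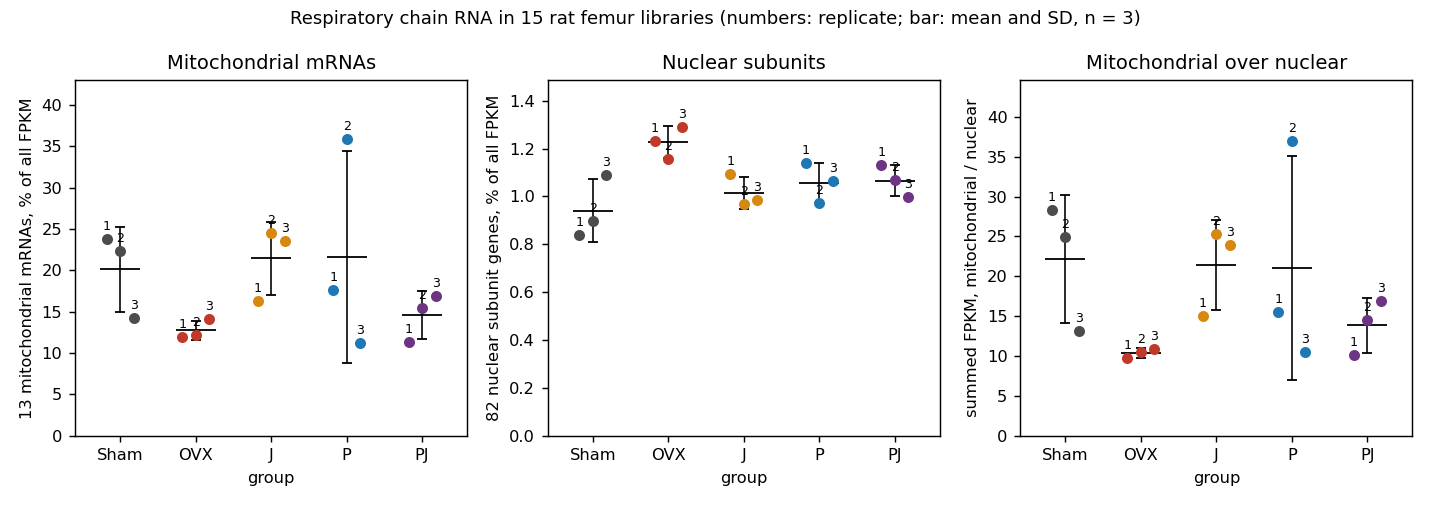
Share of all FPKM taken by the 13 mitochondrial mRNAs (left, percent) and by the 82 nuclear subunit genes (middle, percent), and the ratio of their summed FPKM (right), for each of 15 libraries by group; numbers mark the replicate, and bars the mean and SD of 3 libraries. The OVX libraries have ratios of 9.71 to 10.9, below all Sham and J libraries, and P 2 stands apart at 37.0.

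None of the 13 mitochondrial mRNAs passed the test in any of the comparisons (limma on log2(FPKM + 1), Benjamini-Hochberg adjusted p under 0.05), beside 54.2% of the 14416 genes tested for OVX against Sham, 6.06% for J, 39.2% for P and 44.4% for PJ against OVX. At an unadjusted p under 0.05 there were 2 for OVX against Sham, 5 for P against OVX and 0 for J and for PJ against OVX. Over all 14416 genes there were 8516 for OVX against Sham, and 3604, 6863 and 7447 for J, P and PJ against OVX. All 13 had a log2 fold change below 0 for OVX against Sham, from -1.15 to -0.34 with a median of -0.68, beside a median of -0.04 over all genes. All 13 were above 0 for J against OVX, from 0.63 to 1.33 with a median of 0.85, beside 0.11 over all genes. For 11 of them the J and OVX libraries did not overlap, but the share of all genes without overlap was not counted. The adjusted p of the 13 was 0.219 or more in limma. The range for P against OVX was 0.31 to 1.68, but without P 2 the values of Mt-co1, Mt-co2, Mt-co3, Mt-atp6 and Mt-atp8 were at or below 0, the lowest being Mt-co1 at -0.27. For PJ against OVX 10 were above and 3 below 0, from -0.16 to 1.08. Without Sham 3, 5 mitochondrial mRNAs passed for OVX against Sham, and for P against OVX 5 passed without P 3 and 1 without OVX 3. Over all 14416 genes, 7364, 4663 and 5016 passed in these settings. The 4 comparisons share the OVX libraries.

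Within the mitochondrial genome, the median log2 fold change for OVX against Sham was -0.99 over the 7 mRNAs of complex I and -0.38 over the 3 of complex IV. Mt-nd2, a membrane subunit of complex I, was at 6413, 5729 and 3434 FPKM in Sham and at 1888, 2109 and 2872 FPKM in OVX. These groups did not overlap, and the log2 difference was -1.15 ± 0.47 (SE, n = 3 per group), with an adjusted p of 0.053 in limma. Mt-co1, the catalytic subunit of complex IV and the most abundant of the 13, was at 21415, 20214 and 13932 FPKM in Sham and at 14069, 13271 and 14595 FPKM in OVX. Its groups overlapped, with a log2 difference of -0.38 ± 0.52 (SE) and an adjusted p of 0.56. Mt-cyb, the only subunit of complex III encoded there, had -0.53 ± 0.43 (SE), and Mt-atp6, a subunit of the proton channel of complex V, had -0.54 ± 0.52 (SE).

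The 7 Mt-nd mRNAs summed to 52.0, 50.9 and 40.0% of the 3 Mt-co mRNAs in Sham, and to 25.0, 35.8 and 39.2% in OVX. The percentages were 35.5, 37.5 and 37.8 in J, 49.0, 49.5 and 53.8 in P, and 45.8, 53.1 and 49.3 in PJ. All P and PJ libraries, P 2 and PJ 3 among them, lay above all OVX and J libraries, and J lay within the range of OVX. Mt-nd6, the 1 mRNA on the other strand, was at 131, 258 and 393 FPKM in OVX and at 534, 1670 and 492 in P. These libraries did not overlap, and its log2 difference of 1.68 ± 0.64 (SE) had an adjusted p of 0.055. Use of strand in the counting was not stated, so reads of Mt-nd6 and of transcripts opposite to it cannot be told apart. Mt-cyb kept a nearly even share of the mitochondrial sum, from 6.77 to 8.36% over the 15 libraries. Mt-atp8 was at 0.861 to 1.66% of Mt-atp6 although both lie on 1 transcript. Mt-atp8 overlaps Mt-atp6, and Mt-nd4l overlaps Mt-nd4, so how their shared reads were counted makes both pairs uncertain.

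**Figure D2:**
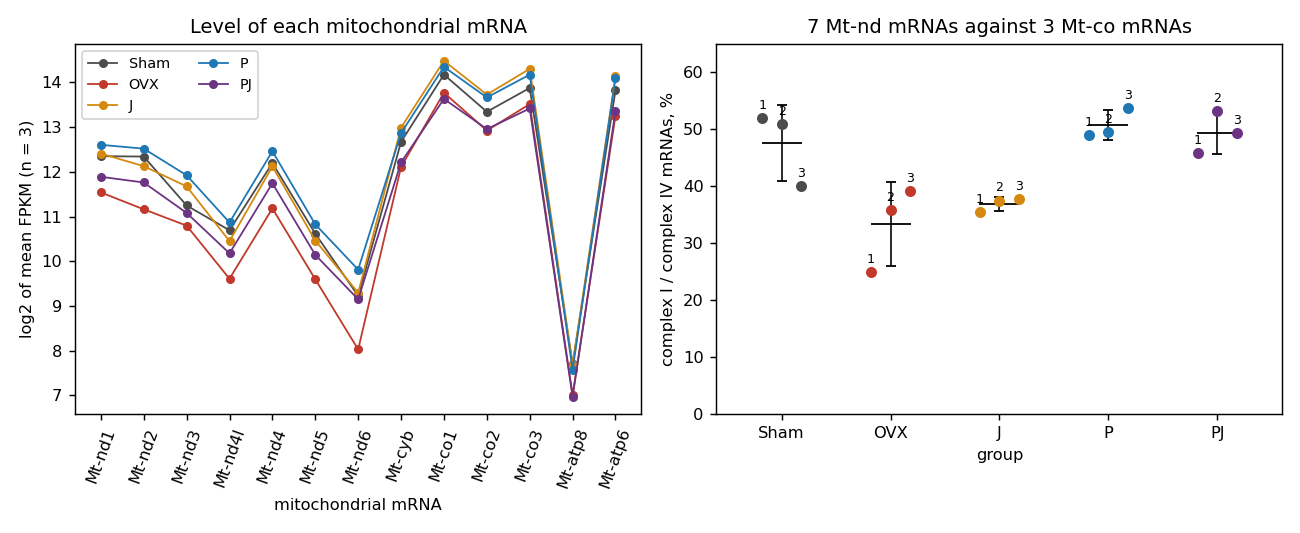
Left, level of each mitochondrial mRNA as log2 of the group's mean FPKM (lines join the 13 mRNAs of a group); right, the 7 Mt-nd mRNAs as a percentage of the 3 Mt-co mRNAs in each library (numbers mark the replicate, bars the mean and SD of 3). PJ lies close to OVX at Mt-co1, with a log2 fold change of -0.16, and above it at Mt-nd6, with 1.08; the right panel has P and PJ at 45.8 to 53.8% against 25.0 to 39.2% in OVX and J.

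Of the 92 nuclear genes tested, 50 passed as higher and 4 as lower after ovariectomy (OVX against Sham). Of all genes 25.3% were higher and 28.9% lower. The nuclear genes had a median log2 difference of 0.46, and all genes one of -0.04. Without Sham 1, Sham 2 and P 2, the libraries highest in muscle markers, fewer nuclear genes passed as higher. Sham 3 alone then stood for its group and was assumed to vary like the others, so no count is given. The median over all genes was -0.11 there. By class, in the main analysis, 14 rose and 1 fell of 34 subunits of complex I, 6 rose of 7 of complex III, 9 rose and 2 fell of 14 of complex IV, 10 rose of 15 of complex V, and 4 rose of 9 assembly or regulatory factors. Of the 4 genes of complex II, 1 rose and 1 fell. Among the other nuclear genes, 5 of 7 pseudogenes rose, and so did Ndufs6l1, 1 of 2 genes similar to a subunit; short reads of such copies and of their parent genes may be shared.

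Complex I, the NADH dehydrogenase, had a median log2 fold change of 0.26. Ndufa8, an accessory subunit, was at 33.0, 30.2 and 39.6 FPKM in Sham and at 66.7, 57.3 and 57.5 FPKM in OVX. The groups were well apart, at 0.81 ± 0.13 (SE) on the log2 scale with an adjusted p of 0.00019 in limma. Ndufs6 was low, at 0.836 to 2.27 FPKM in Sham and 1.93 to 3.73 FPKM in OVX, and rose by 0.76 ± 0.29 (adjusted p 0.041). Ndufv3 was the 1 subunit of complex I that fell, from 9.05, 11.0 and 10.2 FPKM to 7.00, 6.59 and 7.00 FPKM, a log2 change of -0.49 ± 0.13 (adjusted p 0.0049). Of the core subunits, Ndufs1 rose by 0.55 ± 0.21 (adjusted p 0.044) and Ndufs3 by 0.42 ± 0.15 (adjusted p 0.035). Ndufv1, Ndufv2, Ndufs7 and Ndufs8 did not pass, with 0.26 ± 0.12, 0.13 ± 0.15, 0.14 ± 0.17 and 0.08 ± 0.19.

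In complex II, which links the citric acid cycle to the chain, the catalytic Sdha had a log2 difference of -0.09 ± 0.15 (SE, adjusted p 0.65) and the membrane subunit Sdhc one of -0.08 ± 0.14 (adjusted p 0.66). Sdhb, the iron-sulfur subunit, was at 38.6, 39.5 and 47.9 FPKM in Sham and 32.8, 33.6 and 36.6 in OVX. It fell by 0.28 ± 0.11 with an adjusted p of 0.048, and 8 of the 15 other settings lost this call, among them leaving out Sham 2, Sham 3 or any OVX library. Sdhd, the other membrane subunit, rose from 46.8, 42.7 and 61.5 FPKM to 66.5, 65.3 and 69.2 FPKM (0.42 ± 0.14, adjusted p 0.022).

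In complex III the hinge protein Uqcrh was at 52.8, 60.8 and 72.0 FPKM in Sham and 124, 105 and 115 FPKM in OVX. It rose by 0.89 ± 0.16 on the log2 scale, with an adjusted p of 0.00036. Uqcrb rose by 0.88 ± 0.22 (adjusted p 0.0042), the Rieske iron-sulfur protein Uqcrfs1 by 0.81 ± 0.15 (adjusted p 0.0005) and the core protein Uqcrc1 by 0.54 ± 0.11 (adjusted p 0.0015). The second core protein, Uqcrc2, had 0.20 ± 0.23 and was the 1 tested subunit of complex III that did not pass.

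**Figure D3:**
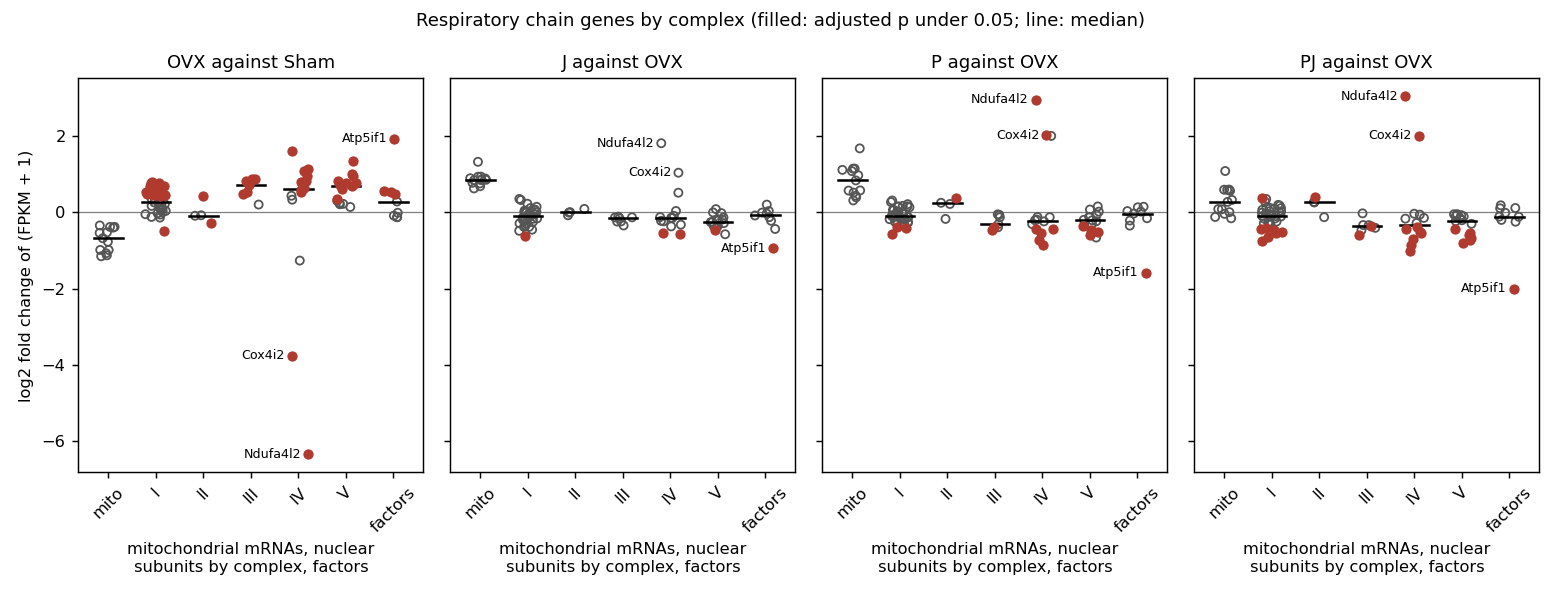
Log2 fold change of (FPKM + 1) of each tested gene in 4 comparisons, for the 13 mitochondrial mRNAs (mito), the nuclear subunits of complexes I to V and the 9 assembly or regulatory factors; filled points passed at an adjusted p under 0.05, and lines mark medians. For OVX against Sham the nuclear medians lie above 0 except for complex II, the mitochondrial median is at -0.68, and Ndufa4l2 and Cox4i2 lie far below the rest; in the 3 comparisons with OVX, Atp5if1 is the lowest point.

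Complex IV, cytochrome c oxidase, held the subunit with the largest rise, Cox5a, and those with the largest falls, Ndufa4l2 and Cox4i2. Cox5a was at 11.7, 17.0 and 20.2 FPKM in Sham and at 52.9, 47.6 and 50.4 FPKM in OVX. The groups lay far apart, and the log2 difference was 1.60 ± 0.22 (adjusted p 5.6e-05 in limma). Cox7b rose by 1.13 ± 0.15 and Cox5b by 1.09 ± 0.13 (adjusted p 3.5e-05 and 1.6e-05). The ubiquitous isoforms rose as well, Cox4i1 by 0.52 ± 0.14 (adjusted p 0.0076), Cox6a1 by 0.65 ± 0.13 (adjusted p 0.0012), Ndufa4 by 0.79 ± 0.17 (adjusted p 0.0018) and the more abundant of the 2 Cox6b1 genes by 0.95 ± 0.16 (adjusted p 0.00024). Cox7a2 had 0.43 ± 0.18 and did not pass (adjusted p 0.057).

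Ndufa4l2, a hypoxia-induced paralog of Ndufa4, was at 241, 137 and 122 FPKM in Sham and at 0.495, 0.669 and 2.01 FPKM in OVX. It fell by 6.36 ± 0.83 on the log2(FPKM + 1) scale (adjusted p 3.6e-05), and no OVX library came near a Sham library. Ndufa4l2 made up 87.2 to 95.5% of the sum of the pair with Ndufa4 in Sham, and 1.89 to 7.05% in OVX. Cox4i2, the isoform of subunit 4 known from lung and vessel walls, was at 32.8, 27.8 and 38.3 FPKM in Sham and at 1.63, 1.03 and 1.85 FPKM in OVX. It fell by 3.76 ± 0.46 (adjusted p 2.2e-05), and its share of the pair with Cox4i1 went from between 21.1 and 28.4% to between 0.719 and 1.21%.

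The cartilage list moved with both genes. Of its 5 tested markers 5 were lower in OVX than in Sham, and its summed level was 12.8, 274 and 131 FPKM in J, between OVX and Sham. The endothelial list did so too, with 6 of 6 lower in OVX and sums of 312 to 528 FPKM in Sham and 56.5 to 80.1 FPKM in OVX. Among the P libraries, Ndufa4l2 was at 5.00, 79.3 and 6.27 FPKM and the cartilage list at 53.9, 3035 and 187 FPKM. Among the PJ libraries, Ndufa4l2 was at 20.6, 28.7 and 5.56 FPKM and the cartilage list at 743, 752 and 35.0 FPKM. The library highest or lowest in the one was also so in the other in PJ, and P 2 was highest in both. The part of cartilage and vessel RNA in these falls was not tested.

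Cox6a2, the isoform of heart and skeletal muscle, was at 6.66, 6.43 and 0.306 FPKM in Sham, 0.104, 0 and 3.84 FPKM in OVX and 1.86, 49.9 and 1.38 FPKM in P. It did not pass in OVX against Sham (-1.27 ± 1.05, adjusted p 0.33) or in P against OVX (2.00 ± 1.05, adjusted p 0.15). P 2, Sham 1 and Sham 2, highest in Cox6a2, were also highest in the muscle list.

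**Figure D4:**
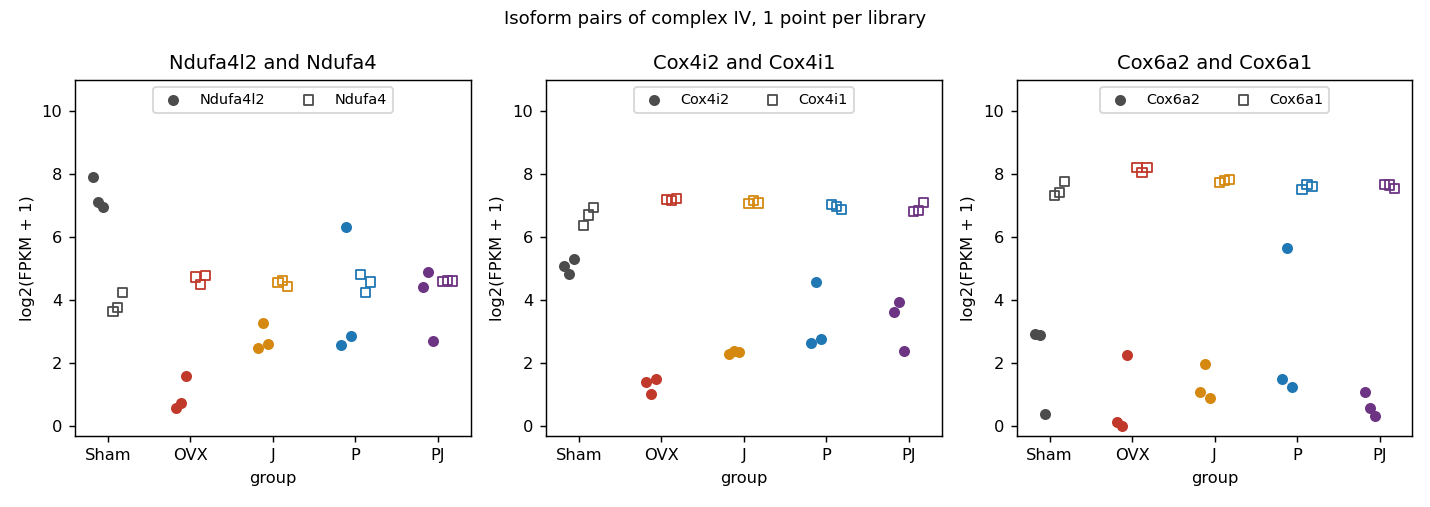
Levels of 3 pairs of complex IV isoforms in 15 libraries as log2(FPKM + 1), by group; filled circles are Ndufa4l2, Cox4i2 and Cox6a2, and open squares Ndufa4, Cox4i1 and Cox6a1. Ndufa4l2 and Cox4i2 are lowest in OVX with P 2 far above the other P libraries, while Cox4i1 stays within 82.5 to 150 FPKM.

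In complex V, the ATP synthase, the catalytic beta subunit Atp5f1b was at 226, 261 and 365 FPKM in Sham and at 559, 558 and 576 FPKM in OVX. The OVX libraries lay close together and above all Sham libraries, at 1.02 ± 0.19 on the log2 scale (adjusted p 0.00058). Its partner Atp5f1a rose by 0.69 ± 0.21 (adjusted p 0.016), and Atp5me, a small membrane subunit, by 1.36 ± 0.27 (adjusted p 0.00096). Atp5f1a did not pass without Sham 1 (0.55) or Sham 2 (0.62), and without Sham 1, Sham 2 and P 2 its value was 0.28.

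Atp5if1 encodes the inhibitor that blocks ATP hydrolysis by complex V and is also known from heme synthesis in red cell precursors. It was at 97.8, 98.2 and 97.4 FPKM in Sham and at 424, 373 and 334 FPKM in OVX. Its rise of 1.93 ± 0.20 on the log2 scale was the largest among all 92 nuclear genes tested (adjusted p 4.9e-06). It stood at 179, 233 and 179 FPKM in J, at 112, 173 and 98.8 in P, and at 86.2, 87.3 and 107 in PJ. By mean the groups stood in the order OVX, J, P, Sham and PJ. OVX, J and P did not overlap, and the PJ libraries overlapped those of P and Sham. Atp5if1 was at 26.7 to 43.3% of Atp5f1b in Sham and 58.0 to 75.8% in OVX.

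Beside Atp5if1, all 10 erythroid markers were higher in OVX than in Sham, and the list's mean log2(FPKM + 1) was 1.72 to 3.27 in Sham, 8.11 to 8.51 in OVX, 7.07 to 7.39 in J, 5.49 to 6.44 in P and 3.28 to 5.50 in PJ. Within P, P 2 was highest in both, and within PJ, PJ 3 was highest in both. Within J, J 2 was highest in Atp5if1 but had the lowest globin share of all FPKM (3.26%, against 3.81 and 4.11%). All PJ libraries lay above Sham in the erythroid list, while their mean of Atp5if1 was below that of Sham. The neutrophil list (9 of 9 tested higher), the megakaryocyte list (6 of 6 higher) and the cell cycle list (6 of 6 higher) moved the same way, the last from sums of 46.9 to 70.8 FPKM to sums of 598 to 672 FPKM. Their part in the rise of the nuclear genes was not tested.

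**Figure D5:**
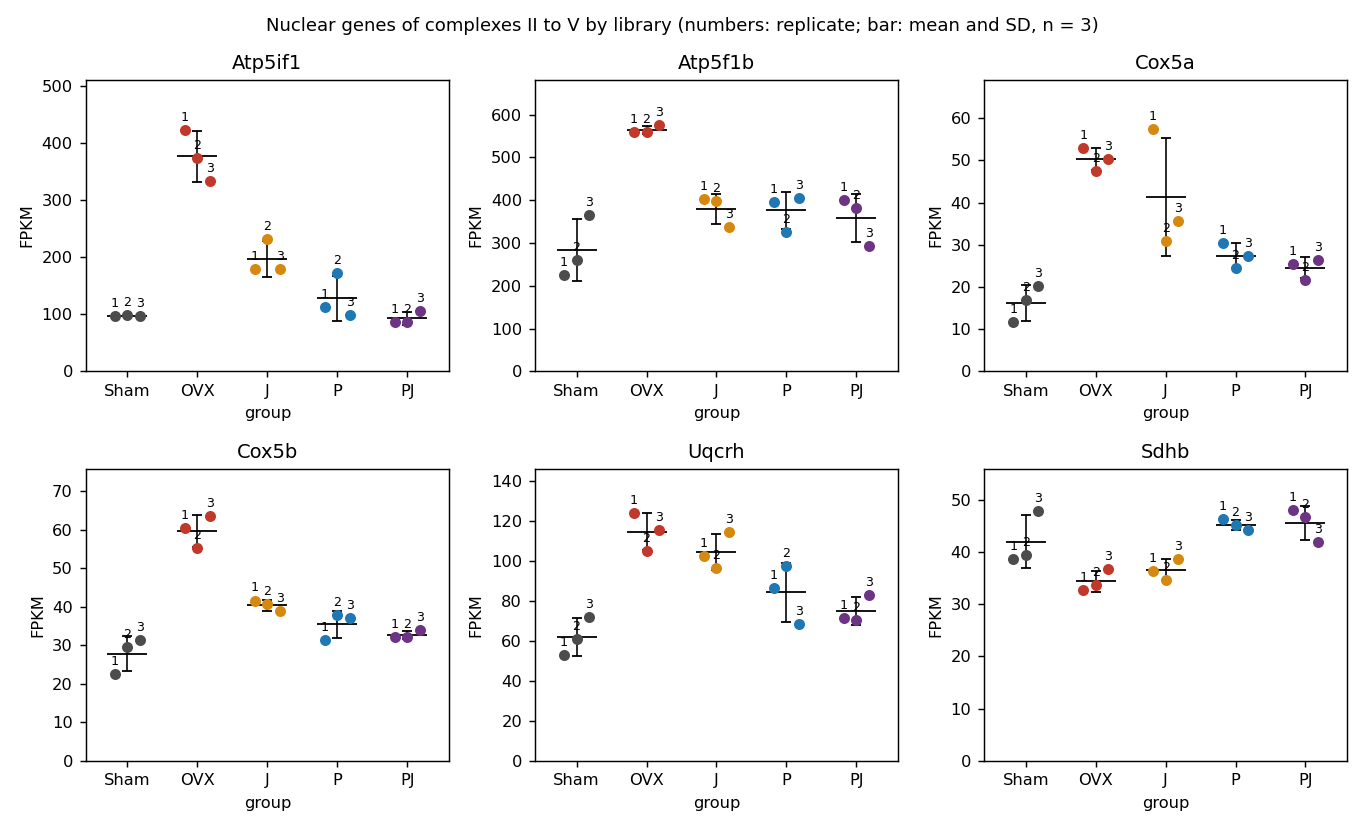
FPKM of 6 nuclear genes of complexes II to V in each library, by group; numbers mark the replicate, and bars the mean and SD of 3 libraries. Atp5if1, Atp5f1b, Cox5b and Uqcrh have their highest group mean in OVX, Sdhb its lowest, and J 1 stands above the OVX libraries in Cox5a.

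The start-site windows of 5 genes that changed, chosen after their values were seen, are shown because nuclear respiratory chain genes are known to share binding sites for NRF1, ETS-family factors (GABP) and YY1. RefSeq windows of 300 bases on build GRCr8 (250 before and 50 from the annotated start, 5′ to 3′ on the gene's strand) matched 78 of the 88 different symbols of nuclear subunits and factors. The 5 shown are Cox5b at chr9:46417587-46417886, Atp5me at chr14:1464610-1464909, Atp5mf at chr12:14535185-14535484 and Ndufa4l2 at chr7:65241919-65242218, all on the plus strand, and Atp5if1 at chr5:150026628-150026927 on the minus strand. Capitals mark matches to GCGCA and GCGC with any 1 base between them (NRF1), CCGGAAG (ETS) or AAGATGGCG (YY1) on either strand.
Cox5b: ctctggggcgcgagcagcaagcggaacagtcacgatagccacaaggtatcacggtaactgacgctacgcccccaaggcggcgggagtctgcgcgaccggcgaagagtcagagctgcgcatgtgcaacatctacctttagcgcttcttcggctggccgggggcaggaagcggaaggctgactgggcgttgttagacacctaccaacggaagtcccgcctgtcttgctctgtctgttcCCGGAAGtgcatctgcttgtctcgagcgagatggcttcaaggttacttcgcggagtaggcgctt
Atp5me: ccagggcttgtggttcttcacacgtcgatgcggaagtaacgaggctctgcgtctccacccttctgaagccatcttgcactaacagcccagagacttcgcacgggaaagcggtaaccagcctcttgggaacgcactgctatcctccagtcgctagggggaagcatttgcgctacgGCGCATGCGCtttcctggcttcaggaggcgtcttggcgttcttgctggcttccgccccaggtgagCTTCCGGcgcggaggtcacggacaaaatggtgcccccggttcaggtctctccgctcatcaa
Atp5mf: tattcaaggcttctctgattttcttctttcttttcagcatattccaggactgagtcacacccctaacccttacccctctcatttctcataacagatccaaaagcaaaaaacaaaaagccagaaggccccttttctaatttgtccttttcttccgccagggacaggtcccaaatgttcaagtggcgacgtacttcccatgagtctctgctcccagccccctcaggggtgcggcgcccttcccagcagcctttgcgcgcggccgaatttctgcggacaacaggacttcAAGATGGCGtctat
Atp5if1: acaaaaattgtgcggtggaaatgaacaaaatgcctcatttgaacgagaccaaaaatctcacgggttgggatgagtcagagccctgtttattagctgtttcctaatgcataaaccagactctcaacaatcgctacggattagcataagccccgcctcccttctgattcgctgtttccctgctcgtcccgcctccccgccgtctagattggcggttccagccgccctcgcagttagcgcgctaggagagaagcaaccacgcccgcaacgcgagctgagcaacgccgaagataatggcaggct
Ndufa4l2: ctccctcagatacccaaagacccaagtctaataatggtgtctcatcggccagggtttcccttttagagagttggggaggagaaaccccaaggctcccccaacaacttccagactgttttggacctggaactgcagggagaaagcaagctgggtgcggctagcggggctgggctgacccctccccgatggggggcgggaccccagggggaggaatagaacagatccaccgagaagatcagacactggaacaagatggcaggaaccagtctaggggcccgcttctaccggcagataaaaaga

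The NRF1 motif was found in 16 of the 78 windows (20.5%) and in 4.25% of all 33469 windows of the table. The ETS motif was found in 21 (26.9%, against 8.75%) and the YY1 motif in 10 (12.8%, against 1.73%). The 2 sets are unlike. The 78 hold 1 window per symbol, and the 33469 are all windows, not limited to genes tested here. In the windows shown, Cox5b holds the ETS motif, Atp5me the NRF1 motif and an ETS motif on the other strand, and Atp5mf the YY1 motif past its start. The windows of Atp5if1 and Ndufa4l2, with the largest rise and the largest fall, hold none of the 3. For OVX against Sham, beside 25.3% higher and 28.9% lower over all genes, 22 of 41 tested genes with any of the motifs passed as higher and 2 as lower, and 16 of 33 with none passed as higher and 1 as lower. A match describes the letters of a window and not binding.

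Under the walnut extract, 5 nuclear genes were lower and 0 higher in J than in OVX, beside 2.79% lower and 3.27% higher over all genes. At an unadjusted p under 0.05, 16 were lower and 2 higher, beside 3604 of all 14416 genes in either direction. The 5 were Atp5if1 (-0.94 ± 0.20, adjusted p 0.021), the complex I subunit Ndufa12 (-0.61 ± 0.13, adjusted p 0.023), Cox7b (-0.58 ± 0.15, adjusted p 0.038), Cox5b (-0.55 ± 0.13, adjusted p 0.029) and Atp5mf of complex V (-0.48 ± 0.13, adjusted p 0.046). Ndufa12 was at 94.5, 84.0 and 80.0 FPKM in OVX and at 56.0, 54.5 and 57.1 FPKM in J. Its groups did not overlap, and neither did those of Cox5b, at 60.3, 55.3 and 63.6 FPKM in OVX and 41.6, 40.8 and 38.8 FPKM in J. Leaving out any 1 library of J or OVX left 0 to 2 of these calls, and 12 to 326 of all 14416 genes lower. Median-ratio scaling gave 14 lower, and over all genes moved 402 lower to 947.

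Among genes that did not pass in J, Ndufa4l2 was at 4.55, 8.66 and 5.09 FPKM and Cox4i2 at 3.94, 4.19 and 4.16 FPKM, all above their OVX libraries. With 1.81 ± 0.83 (adjusted p 0.19) and 1.04 ± 0.46 (adjusted p 0.18) neither passed. The 4 genes of complex II had log2 differences between -0.08 and 0.09, with adjusted p of 0.64 or more. Atp5f1b had -0.58 ± 0.19 (adjusted p 0.088) and Uqcrc1 -0.24 ± 0.11 (adjusted p 0.21).

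Under the Psoralea extract, 16 nuclear genes were lower and 3 higher in P than in OVX, beside 15% lower and 24.2% higher over all genes. Median-ratio scaling gave 38 lower and 2 higher, and scaling to a fixed sum without mitochondrial and globin genes gave 12 lower and 5 higher. Over all genes 3486 were higher and 2160 lower, and 2796 and 3385 with median-ratio scaling. With the fixed sum 3995 were higher and 1973 lower. The 16 comprised 5 of 14 subunits of complex IV, 4 of 15 of complex V, 3 of 34 of complex I and 2 of 7 of complex III, with Atp5if1 and Ndufs6l1. Atp5if1 fell by 1.59 ± 0.20 (adjusted p 0.00011), Cox5a by 0.85 ± 0.22 (adjusted p 0.0084), Cox5b by 0.74 ± 0.13 (adjusted p 0.00078) and Ndufa8 by 0.58 ± 0.13 (adjusted p 0.0039). Cox5a was at 30.4, 24.5 and 27.5 FPKM in P, between its OVX and Sham libraries and overlapping neither.

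The 3 genes higher in P were Ndufa4l2 (2.95 ± 0.83, adjusted p 0.013), Cox4i2 (2.02 ± 0.46, adjusted p 0.0043) and Sdhb (0.39 ± 0.11, adjusted p 0.014). Cox4i2 was at 5.22, 22.9 and 5.89 FPKM in P, above all OVX libraries and below all Sham libraries. Sdhb was at 46.2, 45.1 and 44.2 FPKM, with all 3 above the OVX libraries, and median-ratio scaling left 0.20, which did not pass, nor did it pass without OVX 1 (0.36). Ndufa4l2 had 1.75 without P 2 and passed. Without P 2 there were 14 lower and 4 higher, and those lower numbered 9 without OVX 3 and 10 without OVX 1 or P 3. Over all genes 1867 were lower and 3932 higher without P 2. Those lower over all genes numbered 1821 without OVX 3, 1624 without OVX 1 and 1965 without P 3.

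With both extracts, 26 nuclear genes were lower and 4 higher in PJ than in OVX, beside 14.6% lower and 29.8% higher over all genes. Median-ratio scaling gave 53 lower and 2 higher, and over all genes moved 4298 higher and 2103 lower to 3003 and 3569. The 26 comprised 7 of 34 subunits of complex I, 2 of 7 of complex III, 7 of 14 of complex IV and 6 of 15 of complex V, with Atp5if1, Ndufs6l1 and 2 pseudogenes. Atp5if1 fell by 2.00 ± 0.20 (adjusted p 2.2e-05), Cox5a by 1.01 ± 0.22 (adjusted p 0.0028), Cox5b by 0.85 ± 0.13 (adjusted p 0.00024), Atp5me by 0.80 ± 0.27 (adjusted p 0.03), Ndufa12 by 0.75 ± 0.13 (adjusted p 0.00066) and Uqcrh by 0.61 ± 0.16 (adjusted p 0.0072). Atp5me was at 126, 95.0 and 185 FPKM in OVX and at 59.8, 59.4 and 116 FPKM in PJ. PJ 3 overlapped OVX there, and 17 of the nuclear genes were lower without OVX 1 or without OVX 3. Over all genes 1659 and 1812 were lower in these settings. Atp5me itself had -0.55 without OVX 3 and did not pass.

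The genes higher in PJ were Ndufa4l2 (3.04 ± 0.83, adjusted p 0.0099), Cox4i2 (2.02 ± 0.46, adjusted p 0.0038), Sdhb (0.40 ± 0.11, adjusted p 0.011) and Ndufv3 (0.37 ± 0.13, adjusted p 0.029). Cox4i2 was at 11.5, 14.3 and 4.28 FPKM, with PJ 3 lowest. Ndufv3 was at 9.46, 9.87 and 8.27 FPKM in PJ and at 7.00, 6.59 and 7.00 FPKM in OVX. The groups did not overlap. Median-ratio scaling gave 0.11 for Ndufv3 and 0.11 for Sdhb, and neither passed. Ndufv3 also lost its call without any 1 OVX library, PJ 1 or PJ 2. Sdha and Sdhc had 0.27 ± 0.15 and 0.26 ± 0.14 and did not pass (adjusted p 0.17 and 0.14). Other cell type lists moved in PJ against OVX as well. All 9 adipocyte and 6 endothelial markers were higher, and all 10 erythroid, 9 neutrophil, 6 megakaryocyte and 6 cell cycle markers tested were lower. The adipocyte list summed to 266 to 2152 FPKM in OVX and 3731 to 5937 FPKM in PJ. In P against OVX the counts were 3 of 9 adipocyte and 6 of 6 endothelial markers higher, and 10 of 10 erythroid, 8 of 9 neutrophil, 6 of 6 megakaryocyte and 6 of 6 cell cycle markers lower. In J, 2 endothelial markers were higher and 1 erythroid, 1 megakaryocyte and 2 cell cycle markers lower. The part of these cell types in the values of the respiratory chain genes was not tested. Since all 3 treatments were set against the same OVX libraries, values that recur between them are not independent.

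Between the treatments, of 105 genes, 2 were higher in P than in J, beside 4.37% higher and 3.05% lower over all genes (7.42% called): Ndufs5, an accessory subunit of complex I, by 0.52 ± 0.13 (adjusted p 0.043), and its pseudogene Ndufs5-ps2 by 0.67 ± 0.17 (adjusted p 0.044). Ndufs5 was at 8.16, 6.36 and 7.31 FPKM in J and at 12.0, 10.6 and 9.82 FPKM in P. Its groups did not overlap, but leaving out any 1 library of J or P ended its call, and the 2 genes may share reads. Against J, PJ had Atp5if1 lower by 1.06 on the log2 scale (-1.06 ± 0.20, adjusted p 0.0069) and Ndufs5 higher by 0.45 ± 0.13 (adjusted p 0.042), beside 8.38% higher and 5.88% lower over all genes (14.3% called). The Ndufs5 call ended in 8 of 14 other settings, among them leaving out any J library, PJ 1 or PJ 2. Without PJ 3, 12 of the 105 genes passed for PJ against J, beside 3819 of all 14416 genes. Between PJ and P 0 genes passed, as over all genes (0%). At an unadjusted p under 0.05 there were 2 of 105, beside 296 of all 14416 genes. In the F test over the 5 groups 39 nuclear and 0 mitochondrial genes passed, beside 50% of all genes.

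Other mitochondrial genes outside the naming rule were read from fixed lists. For OVX against Sham, where 25.3% of all genes were higher and 28.9% lower, 14 of 25 tested genes of the outer membrane, import and cristae were higher and 1 lower (median 0.45 on the log2 scale). Among 39 assembly factors 7 were higher and 6 lower (median 0.11), among 16 electron carriers 6 and 3 (median 0.22), among 16 genes of the citric acid cycle 5 and 0 (median 0.15), and among 28 genes of mitochondrial DNA maintenance and expression 8 and 2 (median 0.23). Coq3, an enzyme of ubiquinone synthesis, rose by 1.60 ± 0.19 (adjusted p 1.8e-05), Uqcc5, an assembly factor, by 1.18 ± 0.17 (adjusted p 8.4e-05) and Cyc1, cytochrome c1 of complex III, by 0.72 ± 0.12 (adjusted p 0.00029). Tfam, which packages mitochondrial DNA, rose by 0.43 ± 0.15 (adjusted p 0.024), and Polrmt, the mitochondrial RNA polymerase, fell by 0.61 ± 0.18 (adjusted p 0.01). Polrmt was higher than in OVX by 0.62 ± 0.18 in P and 0.75 ± 0.18 in PJ (adjusted p 0.014 and 0.0043), and at 0.57 ± 0.18 in J it did not pass (adjusted p 0.073). The transcription factor Nrf1 rose by 0.68 ± 0.11 in OVX (adjusted p 0.0002). Ppargc1a, a coactivator of mitochondrial genes, had at most 1.21 FPKM in a library and Ucp1, the uncoupling protein of brown fat, at most 0.164 FPKM, and neither was tested. Nrf1 was lower than in OVX by 0.47 in P (-0.47 ± 0.11, adjusted p 0.0051) and by 0.36 in PJ (-0.36 ± 0.11, adjusted p 0.019).

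Against OVX, 0 genes of these lists passed in J, beside 6.06% of all genes. In P, beside 24.2% of all genes higher and 15% lower, the genes higher and lower numbered 4 and 4 of the assembly factors, 3 and 4 of the electron carriers, 3 and 2 of the mitochondrial DNA genes, 1 and 1 of the citric acid cycle, and 1 and 5 of the outer membrane, import and cristae. In PJ, beside 29.8% higher and 14.6% lower, they numbered 5 and 3, 4 and 4, 4 and 2, 2 and 1, and 0 and 5, in the same order of lists.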

How the data were processed

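Femur RNA of 5 groups of 3 libraries was analysed, grouped by sample title. The read trimmer fastp 0.23.4, the aligner STAR 2.7.11a and the counter featureCounts 2.0.6 are listed, with genome build mRatBN7.2, per the submitters' processing notes; their settings are not given in the sources used here. The deposited tables hold 1 FPKM value per gene, in a column that the file headers call count, since the values are not whole and scale with gene length; a second column was empty and not used. Total counts per library were not derived. Of 9791 genes with low values, 9626 (98.3%) gave whole multiples of 1 read within 0.05, which yields relative depth.

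Genes with a mean of at least 1 FPKM (14416) were fitted as log2(FPKM + 1) with limma 3.58.1 in R 4.3.3, 1 mean per group over all 15 libraries, with a variance trend. The fit left 10 residual degrees of freedom, and two-sided p-values were Benjamini-Hochberg adjusted over all genes and called at 0.05. Errors of log2 values are standard errors (SE) of the fit. The script was tested on simulated data. Members and lists were chosen with earlier results of these data known. Named were all 13 mitochondrial mRNAs, the members of each class with the highest and lowest fold change among those passing (2 each way) or else the 1 of smallest p, isoform pairs and regulators fixed by name, and others chosen after their values were seen (the core subunits of complex I and Ucp1). Alternatives were another pseudocount, filters, TPM, median-ratio and fixed-sum scaling, fits of the compared groups only, a replicate block and leaving out libraries; leaving out P 2 with PJ 3, and Sham 1 with Sham 2 and P 2, was added after the data were seen. Replicate numbers are not said to pair libraries. Same-numbered libraries had correlations of deviations from -0.41 to 0.49, above 0.1 in 9 of 30 pairs. Differently numbered ones ranged from -0.55 to 0.60. As these ranges overlap, they do not decide whether the numbers pair libraries. The level of 1 gene is not reported here.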

Additional observations from a re-analysis of the deposited data

Results flagged for a closer look

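In 4 cases the response to 1 treatment differed from the response to another by a test of the difference itself, with OVX as the shared baseline. They were 2 of 105 genes in each of P against J and PJ against J, beside 7.42% and 14.3% of all genes called. Against J, P was higher in Ndufs5 by 0.52 and in Ndufs5-ps2 by 0.67 on the log2 scale (adjusted p 0.043 and 0.044 in limma), and higher in 3 of 3 libraries for both. Against J, PJ was at -1.06 in Atp5if1 (adjusted p 0.0069), lower in 3 of 3 libraries, and at 0.45 in Ndufs5 (adjusted p 0.042), higher in 3 of 3 libraries. Of 14 other settings each, Ndufs5 in P lost its call in 11, Ndufs5-ps2 in P in 10, Ndufs5 in PJ in 8 and Atp5if1 in PJ in 0.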

How the results depend on the processing

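Nuclear genes higher in OVX than in Sham numbered 50, 36 to 56 under the other scalings, pseudocounts and filters, 37 to 53 with 1 library left out, and 21 without Sham 1, Sham 2 and P 2; the cause was not tested. Mitochondrial calls in OVX against Sham were 0 in the main analysis. They numbered 1 with a mean of at least 5 FPKM, 3 after rescaling to TPM and 1 with a fixed sum. They numbered 3 with only the groups compared, 1 with the replicate block, and 0 to 5 with 1 library left out (5 without Sham 3). Over all genes 7813 were called in the main analysis, 7216 with TPM, 8025 with a fixed sum and 8111 with only the groups compared. The all-gene calls were 7769 with the replicate block, 7364 without Sham 3, and 5727 of 10287 with a mean of at least 5 FPKM.

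In J against OVX, 2 nuclear genes were higher with only the groups compared. Those lower numbered 3 without a filter, 8 with a mean of at least 5 FPKM, 14 with median-ratio scaling, 3 with the replicate block, and 0 to 2 with 1 library left out. Over all genes, 402 were lower in the main analysis, 947 with median-ratio scaling, 267 without a filter and 345 with the replicate block. With a mean of at least 5 FPKM 379 of 10287 were lower, and with 1 library left out 12 to 326. With only the groups compared 747 were higher. In P against OVX, 5 nuclear genes were higher with a fixed sum, beside 3995 of all genes. Those lower numbered 9 after rescaling to TPM, 38 with median-ratio scaling, and 9 to 14 with 1 library left out (9 without OVX 3). Over all genes 1747, 3385 and, without OVX 3, 1821 were lower. Mitochondrial calls were 3 with TPM, 1 with the replicate block and 0 to 5 with 1 library left out (5 without P 3). Over all genes 4947, 5644 and, without P 3, 4663 were called. In PJ against OVX, 2 nuclear genes were higher with median-ratio scaling, beside 3003 of all genes. Those lower numbered 16 with TPM, 53 with median-ratio scaling, and 17 to 26 with 1 library left out (17 without OVX 1 or OVX 3). Over all genes 1543 were lower with TPM, 3569 with median-ratio scaling, 1659 without OVX 1 and 1812 without OVX 3.

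P against J gave 0 calls with a pseudocount of 0.1, without a filter, with median-ratio scaling or with only the groups compared. It gave 1 with TPM, 1 with the replicate block and 0 to 1 with 1 library left out. Over all genes the same settings gave 515, 0, 1361, 0, 329 and 917, and 0 to 858 with 1 library left out. PJ against J gave 5 with TPM, 6 with median-ratio scaling, 4 with a fixed sum, 1 with only the groups compared and 1 to 12 with 1 library left out. Over all genes the same settings gave 2271, 2124, 2237 and 615, and 397 to 3819 with 1 library left out. The 12 were without PJ 3, where 3819 of all 14416 genes were called. Calls in the F test numbered 27 (without Sham 1) to 45 (without Sham 3) with 1 library left out. Over all genes these 2 settings gave 6168 and 7160, beside 7213 in the main analysis.

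Median-ratio scaling moved the median log2 fold change of all genes from 0.11 to 0.00 in J, from 0.12 to -0.05 in P and from 0.22 to -0.03 in PJ against OVX. Rescaling to TPM moved it to 0.34 in PJ. Of 2789 values of named genes under other settings 177 lost and 56 gained a call, no called value reversed, and 88 changed sign with neither value passing. The replicate block rests on numbers that are not said to pair the libraries. Depth is known only in relative terms.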
